A study of Mus musculus with 13 samples.

Results

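The heavy chain constant genes of the immunoglobulin locus were followed in perivascular adipose tissue (the fat around blood vessels) of mice given splenocytes. All 8 genes of the locus were taken by name (Ighm, Ighd, Ighg3, Ighg1, Ighg2b, Ighg2c, Ighe and Igha), and all 8 were found among the 34013 genes of the count table. For each library the level of each gene was taken as its part of all counts, scaled to the same total in every library (CPM), and its share as its percent of the summed counts of the 8 genes. The 13 bulk RNA libraries fell into 4 groups by splenocyte donor. WTS-R mice had received cells of wild-type donors (3 libraries) and NS-R mice cells of Nlrp3 knockout donors (3 libraries). TS-R mice had received cells of donors with type 2 diabetes (T2DM; 4 libraries) and NTS-R mice cells of diabetic Nlrp3 knockout donors (3 libraries). All were on the C57BL/6 background, and the genotype label reads WT for WTS-R and TS-R and Nlrp3 KO for NS-R and NTS-R without saying whether donor or recipient is meant. The labels give no age, sex, time after transfer, way of inducing diabetes, or statement on how far the recipients' own lymphocytes had been depleted. Nothing in the labels ties a library to a separate animal, so every p-value speaks only of the spread among these libraries. How much of that spread is technical is not known. In bulk RNA, fewer cells of a type and less RNA per cell cannot be told apart.

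An antibody's class is set by the constant gene that follows its variable region. A B cell first makes IgM and IgD from Ighm and Ighd, which share a transcript. After stimulation the DNA is cut in front of Ighm and in front of a downstream gene, and the part between is lost, so that the cell makes IgG, IgE or IgA in place of IgM. Plasma cells, the end stage, carry very large amounts of heavy chain, light chain and J chain RNA and little of the B cell surface genes. C57BL/6 mice carry Ighg2c where some other strains carry the IgG2a gene. IgA is the main antibody of mucosal surfaces. A count per constant gene does not separate the membrane from the secreted form, nor a productive transcript from the germline transcripts that precede switching.

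The libraries held 14216706 to 37011122 counts, so a count of 0 allowed at most 0.0811 to 0.211 CPM (3 counts, counting error only). Adipocyte genes marked the tissue as labelled, with 7 listed genes summing to 10591 to 17419 CPM in 12 libraries and to 4591 CPM in TS-R replicate 3. Lymph node stroma and high endothelial venule genes (6 of 7 listed genes in the table) summed to 9.21 to 48.9 CPM in 10 libraries, and to 421, 1902 and 78.0 CPM in TS-R replicates 2, 3 and 4. T cell genes (5 of 5) summed to 4.09 to 16.4 CPM in the same 10 libraries and to 153, 401 and 39.4 CPM in those 3. TS-R replicate 1 had the highest skeletal muscle sum (10895 CPM), and NS-R replicates 1 and 2 held airway genes (2787 and 5766 CPM, under 1 CPM elsewhere). Of the gut epithelium genes Lgals4 alone exceeded 10 CPM, and Fabp2 was at 0 or under 0.2 CPM in every library. Nlrp3 was between 0.226 and 3.55 CPM over all libraries and no lower in NS-R (0.456 to 1.36 CPM) than in WTS-R (0.226 to 0.693 CPM), and NTS-R (0.352 to 1.22 CPM) overlapped TS-R (0.537 to 3.55 CPM). NS-R replicate 3 and TS-R replicate 3 expressed Xist. The part of these differences in the heavy chain values below was not tested, beyond the values given without single libraries.

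The 8 genes lie on the minus strand at chr12:113254830-113422730 (GRCm38, GENCODE M21) in the order Ighm, Ighd, Ighg3, Ighg1, Ighg2b, Ighg2c, Ighe, Igha. The build of the count table is not given in the sources used here, so genes were matched by identifier. Reads are best told apart where the genes differ, and the 4 IgG genes differ most in the hinge, a short exon between the first and the second constant domain. Their hinge exons are shown to let the subclasses be compared (5′ to 3′ on the transcript; capitals mark the longest run, of 15 bases, that the Ighg2b and Ighg2c hinges share).
Ighg3, chr12:113360529-113360576: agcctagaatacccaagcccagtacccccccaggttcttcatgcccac
Ighg1, chr12:113329844-113329882: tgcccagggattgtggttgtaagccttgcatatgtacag
Ighg2b, chr12:113307261-113307326: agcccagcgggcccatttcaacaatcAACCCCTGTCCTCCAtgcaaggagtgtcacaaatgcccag
Ighg2c, chr12:113288263-113288325: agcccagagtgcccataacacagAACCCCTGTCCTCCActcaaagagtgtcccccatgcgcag

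Outside the hinge the IgG genes are closer to each other. The longest stretch shared by the secreted transcripts of Ighg2b and Ighg2c has 78 bases and lies in exon 3, at chr12:113306869-113306946 in Ighg2b. It is shown because reads that fall within it could be given to either gene.
Ighg2b and Ighg2c: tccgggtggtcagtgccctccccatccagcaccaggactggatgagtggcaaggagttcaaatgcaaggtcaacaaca
Over the 6 pairs of IgG genes the longest shared run was 28 to 78 bases, with 41 bases as the second longest. Over the other 22 pairs it was 10 to 15 bases. Of all 50-base windows of Ighg2b, 5.26% also occurred in Ighg2c, and no other pair shared one. Splits between Ighg2b and Ighg2c are therefore less certain than those between classes.

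Ighm, the gene of the first antibody class, was the most even member. The WTS-R libraries held 27.4, 16.7 and 32.5 CPM of Ighm (replicates in order), and the NS-R libraries 33.2, 26.2 and 124 CPM. The TS-R libraries held 183, 655, 1251 and 195 CPM, and the NTS-R libraries 184, 26.6 and 66.9 CPM. All 4 TS-R libraries lay above all WTS-R libraries, while NTS-R replicate 2 lay within the range of WTS-R. NTS-R replicate 1 and the lowest TS-R library were nearly level.

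Ighd, the gene of the class that marks naive B cells together with IgM, was high in fewer libraries. The WTS-R libraries held 1.5, 3.16 and 2.33 CPM of Ighd, the NS-R libraries 1.70, 2.62 and 1.95 CPM, and the NTS-R libraries 5.33, 0.966 and 0.774 CPM. The TS-R libraries held 3.05, 140, 406 and 45.4 CPM. TS-R replicate 1 thus lay within the range of WTS-R for Ighd, and the other 3 TS-R libraries, the ones with the highest lymph node stroma and T cell sums, lay far above it. The ratio of Ighm to Ighd counts was 4.66, 3.08 and 4.31 in TS-R replicates 2 to 4 and 5.29 to 18.2 in WTS-R. It was 59.9 in TS-R replicate 1, 19.5, 9.98 and 63.8 in NS-R, and 34.5, 27.6 and 86.5 in NTS-R.

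The 4 IgG genes were near their detection limit in WTS-R, where they summed to 2, 27 and 18 counts. Ighg2c, the IgG2c gene, stood at 0.120, 0.339 and 0.504 CPM in the WTS-R libraries and at 0.540, 0.684 and 247 CPM in the NS-R libraries. The TS-R libraries held 102, 615, 8839 and 634 CPM of it, and the NTS-R libraries 3.94, 124 and 89.5 CPM. No NS-R, TS-R or NTS-R library was as low in Ighg2c as the highest WTS-R library, though NS-R replicates 1 and 2 were close to it. Of Ighg2b, the IgG2b gene, the WTS-R libraries held 0, 1.13 and 0 CPM, the NS-R libraries 1.08, 4.50 and 170 CPM, the TS-R libraries 43.5, 429, 5753 and 548 CPM, and the NTS-R libraries 63.9, 39.1 and 87.0 CPM. For Ighg2b the TS-R and NTS-R libraries overlapped through TS-R replicate 1.

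Ighg1, the IgG1 gene, had 2 counts in WTS-R in all, both in replicate 3. The NS-R libraries held 0, 0.228 and 18.4 CPM of Ighg1, the TS-R libraries 14.3, 158, 4269 and 133 CPM, and the NTS-R libraries 0.0580, 9.45 and 52.7 CPM. NTS-R replicate 1 thus held a single count of Ighg1 beside 1102 counts of Ighg2b. Pooled over its libraries, TS-R had 36487 times the Ighg1 CPM of WTS-R, with a 95% counting interval of 10100 to 301288. Such an interval covers counting error only and leaves out the spread between libraries (14.3 to 4269 CPM in TS-R). Replicate 3 set this ratio: without it the other 3 TS-R libraries pooled had 2014 times the Ighg1 CPM of WTS-R (557 to 16633). Of Ighg3, the IgG3 gene, the WTS-R libraries held 0, 0.0565 and 0.504 CPM, the NS-R libraries 0.108, 0.228 and 10.1 CPM, the TS-R libraries 13.8, 120, 287 and 27.5 CPM, and the NTS-R libraries 0.812, 2.14 and 47.2 CPM. In both genes NTS-R replicate 3 lay above TS-R replicate 1.

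Within the IgG sum the subclasses took different shares from library to library. Ighg2c held 46.2% to 58.8% of the IgG counts in the 4 TS-R libraries and 55.5% in NS-R replicate 3. It held 71.0% and 32.4% in NTS-R replicates 2 and 3, but 5.74% in NTS-R replicate 1, where Ighg2b held 93.0% (1185 IgG counts). The ratio of Ighg2b to Ighg2c counts was 16.2 there and 0.315 to 0.972 in the 7 libraries with more IgG counts (the other 5 held 2 to 99). Ighg1 held 22.3% of the IgG counts in TS-R replicate 3 and 19.1% in NTS-R replicate 3, against 0.0844% to 11.9% in the other 6 of these libraries.

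Igha, the IgA gene, was high in every TS-R library, in 1 NS-R library and in 2 NTS-R libraries. The WTS-R libraries held 0.661, 3.16 and 8.44 CPM of Igha, and the NS-R libraries 1.73, 7.69 and 461 CPM. The TS-R libraries held 490, 1148, 2296 and 1892 CPM, and the NTS-R libraries 4.52, 306 and 325 CPM. Igha was the only member for which every TS-R library lay above every NTS-R library. That is 1 of 7 tested members, no more than the 16.9% of all genes with this order. NTS-R replicate 1 and NS-R replicates 1 and 2 lay within the range of WTS-R. The IgA cell homing genes Ccr10 and Madcam1 did not separate the same libraries. The mucosal plasma cell receptor gene Ccr10 was between 1.76 and 6.44 CPM over all 13 libraries. The lymph node and gut addressin gene Madcam1 exceeded 0.235 CPM only in TS-R replicates 2, 3 and 4. The integrin subunit gene Itgb7 stood at 10.2, 63.3, 135 and 23.96 CPM for TS-R, above all WTS-R libraries (3.91 to 4.79 CPM). For NTS-R it stood at 10.8, 4.69 and 2.603 CPM, while Igha was high in replicates 2 and 3 only.

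Ighe, the IgE gene, was almost undetected outside TS-R replicate 3. It had 0, 12, 345 and 4 counts in TS-R, 1 count in NS-R replicate 3, 1 count in NTS-R replicate 3 and 0 counts in the other libraries. TS-R replicate 3 thus held 345 of the 361 counts of Ighe in TS-R, at 11.8 CPM. Ighe did not pass the filter on low counts and was not tested. The plot of CPM by library shows all 8 genes.

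**Figure D1:**
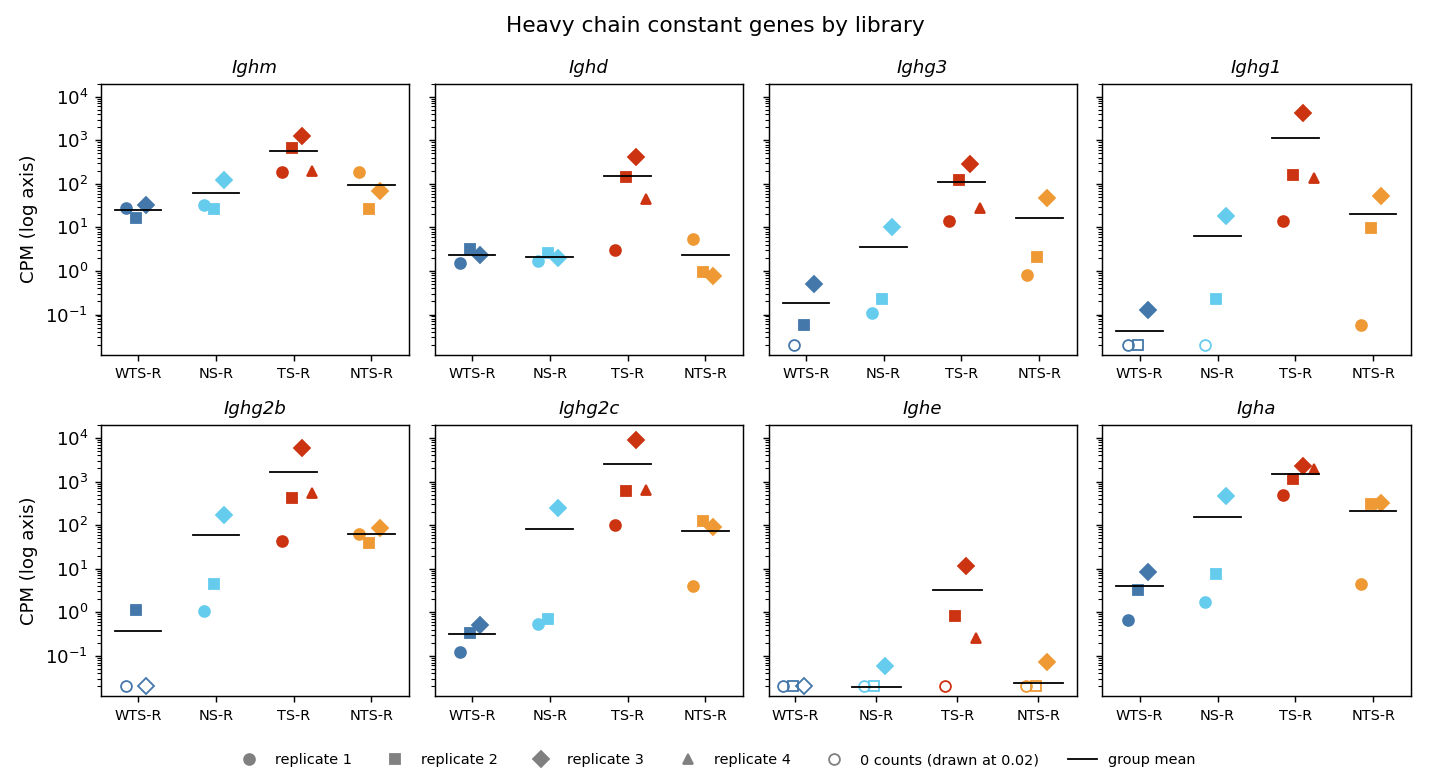
Level of each heavy chain constant gene in CPM (log axis) by group; each point is a library, its shape the replicate, open points are libraries with 0 counts and black lines are group means. TS-R replicate 3 is the highest point in all 8 panels, and NS-R replicate 3 stands above NS-R replicates 1 and 2 in the IgG and Igha panels. NTS-R replicate 1 is the lowest NTS-R library for Ighg3, Ighg1, Ighg2c and Igha but not for Ighm and Ighg2b.

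Per kilobase of the secreted transcript, the order of the mean levels differed between groups. Counts from membrane exons are not set apart, so this length may be too short for some genes (Ighd has 802 bases, against 1900 over all its exons). The places of such genes are therefore approximate. In WTS-R it ran from Ighm (17.1 CPM per kb) over Igha (3.72), Ighd (2.91), Ighg2b (0.338), Ighg2c (0.289) and Ighg3 (0.173) to Ighg1 (0.0390). In TS-R it ran from Ighg2c (2293 CPM per kb) over Ighg2b (1520), Igha (1324), Ighg1 (1063), Ighm (383), Ighd (185) and Ighg3 (103) to Ighe (2.35). TS-R replicate 3 set the place of the IgG genes in TS-R, and neighbours from Ighg2c to Ighg1 did not differ beyond their spread (Ighg2c 2547 ± 4202 CPM and Igha 1457 ± 800 CPM, SD, n = 4). In WTS-R Ighm led in every library, while Igha and Ighd changed places between libraries.

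The make-up of the heavy chain pool went from mostly unswitched in WTS-R to mostly switched in TS-R. Ighm and Ighd together made up 97.4%, 80.9% and 78.4% of the summed heavy chain counts of the WTS-R libraries, but 21.9%, 24.4%, 7.17% and 6.93% of those of the TS-R libraries. This unswitched share was 91.0%, 68.3% and 12.2% in the NS-R libraries and 72.1%, 5.43% and 10.1% in the NTS-R libraries. WTS-R and TS-R did not overlap, whereas NS-R and NTS-R each held libraries at both ends. The mean unswitched share was 85.6% ± 10.3 in WTS-R (SD, n = 3), 57.2% ± 40.5 in NS-R (n = 3), 15.1% ± 9.33 in TS-R (n = 4) and 29.2% ± 37.2 in NTS-R (n = 3).

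The difference of TS-R minus WTS-R in unswitched share was -70.5 points, with an exact two-sided permutation p of 0.0286, the smallest that 4 against 3 libraries allow, and 0.143 after Benjamini-Hochberg adjustment over 15 share tests. Over both donor genotypes, the difference of diabetic minus non-diabetic donors was -49.2 points (means 22.2% and 71.4%; exact permutation p = 0.0171 within genotype, adjusted 0.139). NS-R minus WTS-R was -28.4 points (exact permutation p = 0.300, adjusted 0.563). NTS-R minus TS-R was 14.1 points (exact p = 0.714, adjusted 0.765) and NTS-R minus NS-R -28.0 points (exact p = 0.400, adjusted 0.600). With 3 against 3 libraries no p under 0.1 could be reached. None of the 15 share tests passed an adjusted p of 0.05.

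The IgG share of the WTS-R libraries was 0.405%, 6.21% and 2.55%, that of the NS-R libraries 4.51%, 13.4% and 43.1%, that of the TS-R libraries 20.4%, 40.4%, 82.8% and 38.6%, and that of the NTS-R libraries 26.1%, 34.4% and 41.3%. Every TS-R and NTS-R library lay above every WTS-R library in IgG share. TS-R minus WTS-R was 42.5 points (exact permutation p = 0.0571, adjusted 0.214), and diabetic minus non-diabetic donors 28.1 points (exact permutation p = 0.0186 within genotype, adjusted 0.139). The IgA share of the WTS-R libraries was 2.23%, 12.9% and 19.01%, that of the NS-R libraries 4.51%, 18.3% and 44.6%, that of the TS-R libraries 57.7%, 35.2%, 9.93% and 54.4%, and that of the NTS-R libraries 1.72%, 60.2% and 48.6%. It was thus lower in TS-R replicate 3, where IgG prevailed, than in WTS-R replicates 2 and 3. TS-R minus WTS-R in IgA share was 27.9 points (exact permutation p = 0.143, adjusted 0.357).

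Counting error was widest in the libraries with the fewest heavy chain counts. The 95% Wilson interval of the IgA share ran from 1.25% to 3.94% in WTS-R replicate 1 (494 heavy chain counts), from 15.6% to 21.2% in NS-R replicate 2 (739 counts) and from 34.7% to 35.6% in TS-R replicate 2. Among the switched genes alone the IgA share had the other sign: TS-R minus WTS-R was -32.7 points and diabetic minus non-diabetic donors -22.1 points (exact permutation p = 0.114 and 0.0986, adjusted 0.190 for both). With each count divided by the length of the secreted transcript, a scale chosen after seeing the data, the unswitched share averaged 82.9% in WTS-R and 12.8% in TS-R. Ighm had the most counts of the 8 genes in 6 libraries (all of WTS-R, NS-R replicates 1 and 2, NTS-R replicate 1). Igha had the most in 6 others and Ighg2c in TS-R replicate 3.

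**Figure D2:**
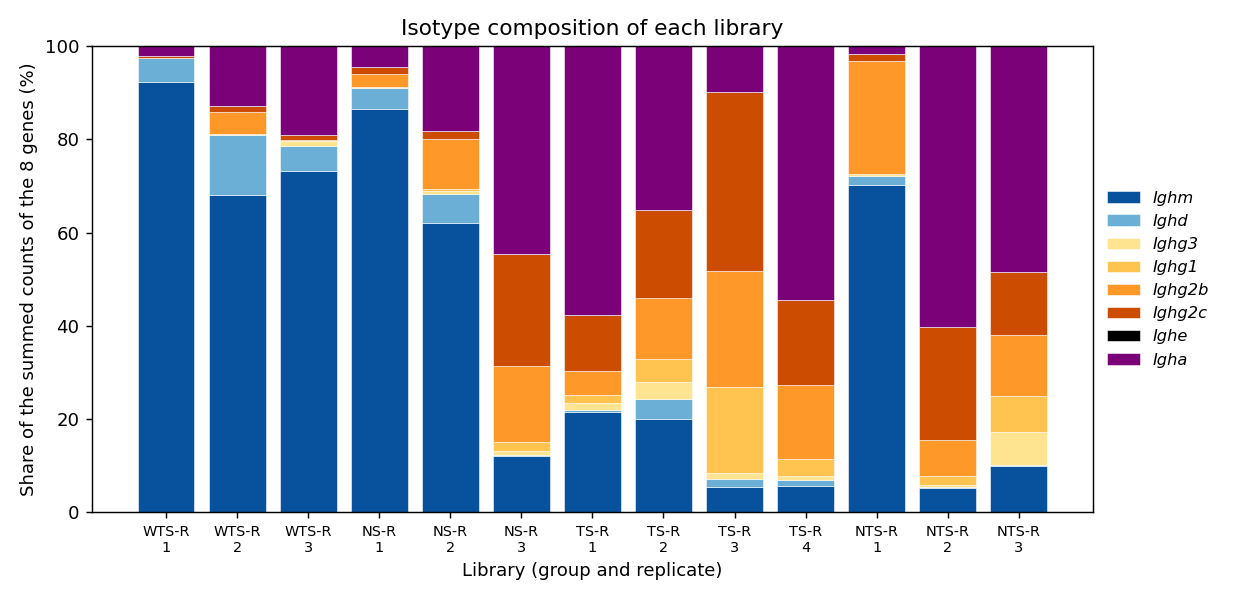
Share of each gene in the summed counts of the 8 heavy chain constant genes (percent, stacked to 100) in each library; blue tones are Ighm and Ighd, yellow to brown tones the IgG genes and purple Igha. Blue fills 78.4% to 97.4% of the WTS-R bars and 6.93% to 24.4% of the TS-R bars, and NS-R replicate 3 and NTS-R replicate 1 depart from the other bars of their groups.

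The summed heavy chain level ran from 24.6 to 23113 CPM over the libraries. The WTS-R libraries held 29.7, 24.6 and 44.4 CPM, the NS-R libraries 38.3, 42.1 and 1032 CPM, the TS-R libraries 850, 3266, 23113 and 3475 CPM, and the NTS-R libraries 263, 508 and 669 CPM. All TS-R libraries lay above all NTS-R libraries, and all NTS-R libraries above all WTS-R libraries. On the scale of log2(CPM + 0.5) the difference was 6.90 for TS-R minus WTS-R, -3.11 for NTS-R minus TS-R, 1.88 for NS-R minus WTS-R and 1.90 for NTS-R minus NS-R, with pooled SDs of 1.54, 1.58, 1.93 and 1.97. As a sum over chosen genes this level was not tested. The heavy chain genes made up 2.31% of all counts in TS-R replicate 3.

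Against the genes of mature B cells the order of the groups was another. The summed CPM of Ms4a1, Cd79a and Cd79b, genes of the B cell surface and receptor, was 6.37, 6.61 and 8.38 for the WTS-R libraries, 8.81, 8.61 and 12.6 for NS-R, 15.5, 239, 1206 and 87.5 for TS-R, and 23.8, 4.55 and 5.77 for NTS-R. The number of heavy chain counts per count of these 3 genes was 4.66, 3.72 and 5.30 for the WTS-R libraries and 4.35, 4.89 and 82.0 for NS-R. It was 54.9, 13.7, 19.2 and 39.7 for TS-R and 11.03, 112 and 116 for NTS-R. The 2 highest ratios were those of NTS-R replicates 2 and 3, whose B cell gene sums lay below those of all WTS-R libraries. On this scale the log2 difference of NTS-R minus TS-R was 0.93 in place of -3.11 on CPM, and that of TS-R minus WTS-R 2.61 in place of 6.90.

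**Figure D3:**
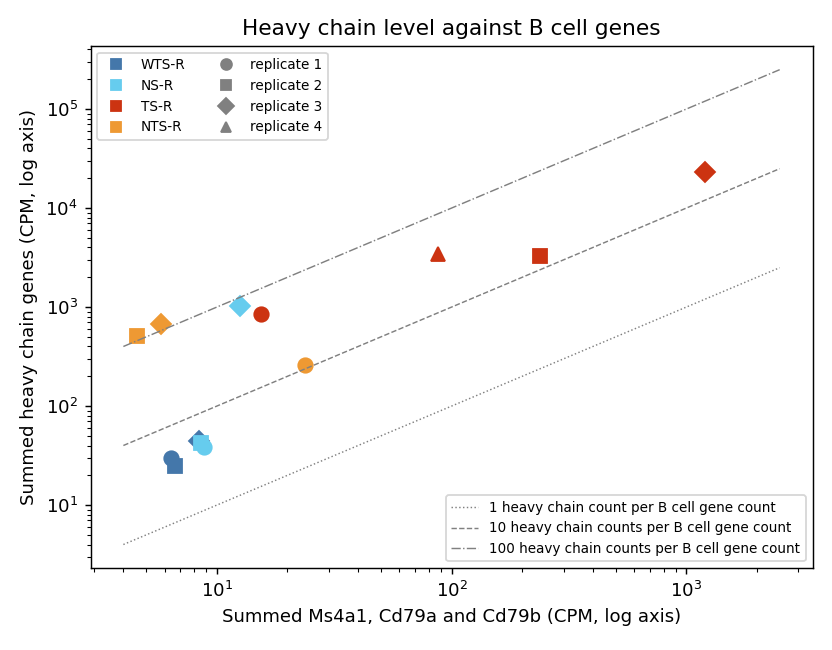
Summed heavy chain CPM against the summed CPM of 3 B cell genes (both log axes), 1 point per library, with grey lines at 1, 10 and 100 heavy chain counts per B cell gene count. WTS-R and NS-R replicates 1 and 2 lie between the lines of 1 and 10, NTS-R replicates 2 and 3 near 100, and TS-R replicate 3 at the upper right, between the lines of 10 and 100.

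Each member was then tested in the fit of all genes by edgeR, which called 0 genes at an FDR under 0.05 in each of the 5 comparisons (0% of 17270 genes), members included. In TS-R against WTS-R all 7 tested members had higher values in TS-R, with an unadjusted p under 0.05 for 7 of 7, against 15.2% of all genes higher at that level. The log2 fold changes were 4.19 for Ighm (SE 0.92, edgeR FDR 0.0624), 5.66 for Ighd (SE 1.29, FDR 0.0624) and 8.23 for Igha (SE 2.19, FDR 0.0686). Ighg2b had 11.70 (SE 2.66), Ighg2c 12.59 (SE 3.10), Ighg3 8.92 (SE 2.38) and Ighg1 14.26 (SE 3.75), with edgeR FDR of 0.0624 to 0.0686. These IgG values rest on very few counts in WTS-R and depend on the small count that edgeR adds. The median over the 7 members was 8.92 and over all genes 0.03.

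The call depended on the tool and on single TS-R libraries. DESeq2 called 7 of 7 members higher, against 9.07% of all genes, with adjusted p from 3.97e-09 (Ighg2c) to 5.18e-05 (Ighg3). Without TS-R replicate 1 edgeR called 7 of 7, against 9.05% of all genes higher, and without TS-R replicate 4 it called 6 of 7, against 5.76%. Without TS-R replicate 3 it called 0, and the log2 fold change was 10.88 for Ighg1, 10.21 for Ighg2c, 9.49 for Ighg2b, 7.98 for Igha and 3.51 for Ighm. Of the 7 members, 6 had all TS-R libraries above all WTS-R libraries (Ighd did not), against 19.2% of all genes. Mature B cell, T cell and lymph node stroma genes were also higher in TS-R replicates 2 to 4, as given above, and TS-R replicate 1 had the lowest of the TS-R sums.

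In NTS-R against TS-R, which bears on donor Nlrp3 under diabetes, all 7 members had lower fitted values in NTS-R. Ighd had the lowest, -5.67 (SE 1.29, edgeR FDR 0.105), and Ighm had -2.35 (SE 0.84, FDR 0.154). The IgG genes ran from -5.34 (Ighg1) to -2.33 (Ighg3), with edgeR FDR of 0.222 to 0.438, and Igha had -2.43 (SE 1.64, FDR 0.439). An unadjusted p under 0.05 was reached by 5 of 7 (not Ighg3 and Igha), against 14.1% of all genes lower at that level. DESeq2 called 2 members lower, Ighd and Ighm (adjusted p = 7.57e-05 and 0.0207), against 7.14% of all genes. The groups did not overlap for 1 of 7 members, Igha, against 16.9% of all genes. Without TS-R replicate 3 the IgG values were between -2.33 and -1.33. This comparison and that of TS-R with WTS-R use the same TS-R libraries.

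In NS-R against WTS-R, which bears on donor Nlrp3 without diabetes, the IgG and IgA differences rested on NS-R replicate 3. The log2 fold changes were 8.10 for Ighg2c (SE 2.71, edgeR FDR 0.564), 7.29 for Ighg2b (SE 2.32, FDR 0.487) and 5.39 for Igha (SE 1.96, FDR 0.676). Without NS-R replicate 3 they were 0.79, 2.66 and 0.10. Ighm had 1.32 and Ighd -0.21 (edgeR FDR 0.9997 for both). An unadjusted p under 0.05 was reached by 3 of 7 members (Ighg2b, Ighg2c, Igha), against 4.92% of all genes higher at that level. DESeq2 called 2 members higher, Ighg2b and Ighg2c (adjusted p = 0.0324 and 0.00437), against 1.1% of all genes. For 1 of 7 members, Ighg2c, the groups did not overlap, against 7.78% of all genes.

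In NTS-R against NS-R, with all libraries, no member passed any of these tests. The log2 fold changes were between -0.23 (Ighg2c) and 2.31 (Ighg3), with SEs of 0.83 to 2.09 and edgeR FDR of 0.963 to 0.999, and DESeq2 called 0 members. Those SEs leave room for changes of several fold in either direction. Without NS-R replicate 3, edgeR called 0 of 8 tested members, but 5 of 8 were higher in NTS-R at an unadjusted p under 0.05, against 2.01% of all genes, and Ighg2c had 7.08 (edgeR FDR 0.145). Without both libraries that express Xist (NS-R and TS-R replicate 3), 6 of 7 were higher at an unadjusted p under 0.05, against 3.48% of all genes, and edgeR called 1, Ighg2c (FDR 0.0197), against 0.186%.

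The interaction asked whether the effect of donor diabetes differed with donor Nlrp3, as NTS-R minus NS-R less TS-R minus WTS-R. All 7 tested members had negative values, from -12.82 for Ighg2c (SE 3.46, edgeR FDR 0.150) and -12.51 for Ighg1 to -3.66 for Ighm (SE 1.18, FDR 0.159). An unadjusted p under 0.05 was reached by 7 of 7, against 13.6% of all genes with negative values at that level. DESeq2 called 6 of 7 (not Ighg3), against 5.74% of all genes. The interaction takes in NS-R replicate 3 and TS-R replicate 3 at once: without the 2 libraries that express Xist, edgeR called 0 members, and 2 of 7 had negative values at an unadjusted p under 0.05, against 13.1% of all genes.

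**Figure D4:**
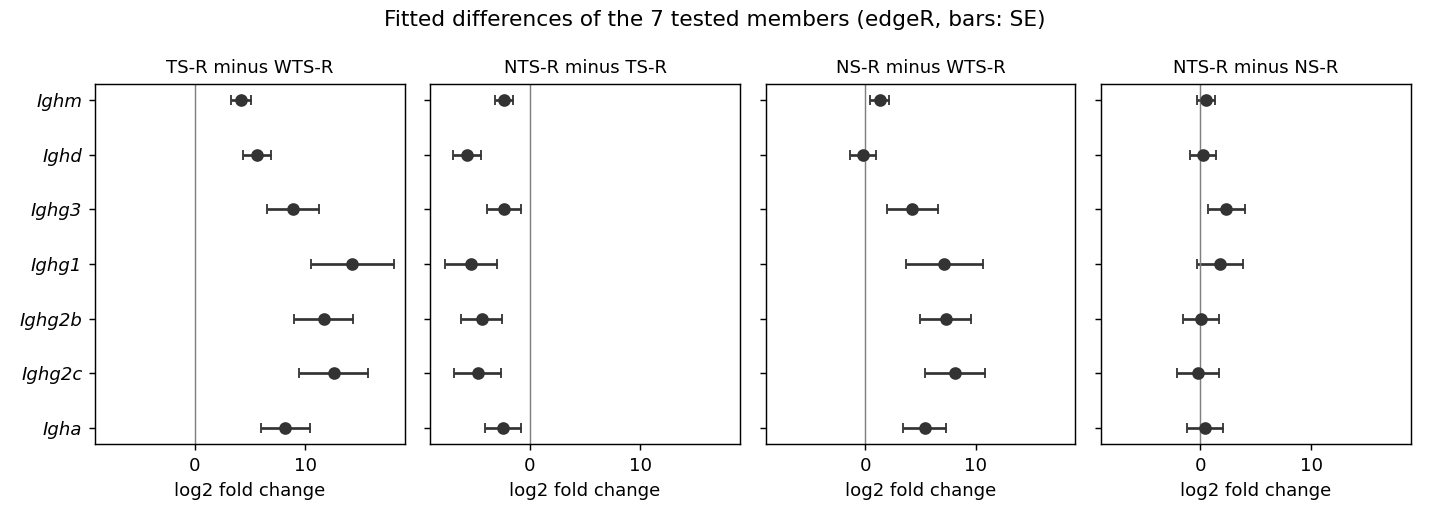
Fitted log2 fold changes of the 7 tested heavy chain genes in 4 comparisons (points: edgeR estimate; bars: SE; grey line: 0). Values for TS-R minus WTS-R lie between 4.19 and 14.26 and those for NTS-R minus NS-R between -0.23 and 2.31, with the widest bars for Ighg1.

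Partner genes of the heavy chains were read from lists. Over all genes, 15.2% were higher in TS-R than in WTS-R at an unadjusted p under 0.05 and 9.07% were called higher by DESeq2, and 14.1% and 7.14% were lower in NTS-R than in TS-R. Of the 5 light chain constant genes 4 were tested, and 4 of 4 had an unadjusted p under 0.05 in TS-R against WTS-R, all higher (median 6.88; 4 called by DESeq2, 0 by edgeR). Igkc, the kappa chain that pairs with most mouse heavy chains, stood at 11.4, 9.77 and 14.1 CPM for the WTS-R libraries, 8.05, 22.7 and 885 CPM for NS-R, 680, 2091, 20658 and 2301 CPM for TS-R, and 150, 378 and 420 CPM for NTS-R. It was high in the same libraries as the switched heavy chains. Light chain counts per heavy chain count were 0.351 to 0.635 in WTS-R and NS-R replicates 1 and 2, and 0.620 to 0.925 in the other 8 libraries.

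Of 14 genes of antibody assembly and secretion, 8 were higher in TS-R than in WTS-R at an unadjusted p under 0.05, against 15.2% of all genes, and 0 lower. The median was 1.69. DESeq2 called 7 of them higher, against 9.07% of all genes, and edgeR called 0. Jchain, which joins the units of IgM and IgA, stood at 2.52, 1.41 and 2.65 CPM for the WTS-R libraries, 4.81, 5.53 and 179 CPM for NS-R, 129, 510, 2192 and 595 CPM for TS-R, and 34.4, 99.1 and 161 CPM for NTS-R. Xbp1 and Irf4, factors of plasma cells that fat cells also express, gave log2 fold changes of 0.24 and 0.22 (edgeR FDR 0.708 and 0.879). Mzb1, an endoplasmic reticulum protein of B and plasma cells that was picked after its values were seen, was at 4.67, 23.3 and 2.25 CPM in TS-R replicates 2 to 4. It was under 0.8 CPM in the other 10 libraries, the 4 with 99.1 to 179 CPM of Jchain among them. Prdm1, of the same list and also picked after its values were seen, did not follow Mzb1. It stood at 0.721, 0.904 and 0.882 CPM for the WTS-R libraries and 1.57, 0.969 and 1.77 CPM for NS-R. For TS-R it stood at 4.63, 5.48, 12.4 and 1.93 CPM, and for NTS-R at 2.61, 1.66 and 2.60 CPM.

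Of 18 genes of the switch machinery and its signals 13 were tested, and 5 were higher in TS-R than in WTS-R at an unadjusted p under 0.05, against 15.2% of all genes (median 0.71; 5 called by DESeq2, 0 by edgeR). In NTS-R 6 of 13 were lower than in TS-R at that level, against 14.1% of all genes (median -0.74; 5 called by DESeq2, 0 by edgeR). The mismatch repair gene Msh6 and the IgA switch factor gene Tgfb1 gave log2 fold changes of 0.71 and 0.58 in TS-R minus WTS-R (edgeR FDR 0.238 and 0.321). Icosl and Trp53bp1, of the same list, gave 2.27 and 0.12 (edgeR FDR 0.0666 and 0.771). DESeq2 called Icosl higher (adjusted p = 0.00115). Icosl stood at 10.4, 44.4, 106 and 18.1 CPM for the TS-R libraries, above all WTS-R libraries.

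Of 11 mature B cell genes 11 were higher in TS-R than in WTS-R at an unadjusted p under 0.05, against 15.2% of all genes (median 5.51). DESeq2 called 10 of them higher, against 9.07% of all genes, and edgeR called 0. In NTS-R 11 were lower than in TS-R at that level, against 14.1% of all genes (median -4.70). DESeq2 called 11 of them lower, against 7.14% of all genes, and edgeR called 0. Cd79a, which carries the signal of the B cell receptor, stood at 6.17, 91.7, 459 and 37.8 CPM for the TS-R libraries, with 1.86 to 8.70 CPM elsewhere. Of 12 antibody receptor genes 10 were tested, and 2 were higher in TS-R than in WTS-R at an unadjusted p under 0.05. That share was near the 15.2% of all genes (median -0.06). DESeq2 called 2 of them higher, against 9.07% of all genes, and edgeR called 0. Fcgrt, the neonatal receptor that recycles IgG, ranged from 236 to 342 CPM over WTS-R, against 527, 236, 106 and 275 CPM for the TS-R libraries. Of 7 genes of IgA cell homing 4 were higher in TS-R than in WTS-R at an unadjusted p under 0.05, against 15.2% of all genes (median 1.75; 4 called by DESeq2, 0 by edgeR), among them the integrin subunits Itga4 and Itgb7, which T cells carry too.

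The genes most like a member over the 13 libraries were taken by Pearson's r of log2(CPM + 0.5), leaving other immunoglobulin genes out. These are descriptions over libraries that share depth, groups and tissue content. For Igha they were Jchain (r = 0.942, n = 13), Crtac1 (0.890), Bhlhe41 (0.885), Kcnj15 (0.883) and 1810013L24Rik (0.876). For the IgG sum they were Jchain (0.988), Gm5424 (0.927), Slc20a1 (0.911), Mark2 (0.907) and Ankrd12 (0.896). For Ighm they were Cxcr6 (0.954), a chemokine receptor gene, Il12rb1 (0.949), H2-Q5 (0.948), Prkch (0.947) and Zmynd15 (0.946). The B cell receptor gene Cd79a had r = 0.912 with Ighm, 0.769 with the IgG sum and 0.636 with Igha. Among the members r ran from 0.570 (Ighd and Igha) to 0.969 (Ighg3 and Ighg1).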

How the data were processed

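The authors deposited 1 table of raw, whole-number counts, genes by libraries. The submitters' processing notes name HISAT2 and featureCounts. For versions, genome build, annotation and strand, the entry is: not given in the sources used here. Identifiers gave a symbol for 33302 of 34013 genes. From these counts, CPM used the library total. The test of each gene was edgeR's (4.0.16, under R 4.3.3; quasi-likelihood, TMM, filterByExpr, 17270 genes, all 13 libraries in 1 fit, Benjamini-Hochberg FDR under 0.05; common biological coefficient of variation 0.389). DESeq2 1.42.0 and limma 3.58.1 were alternatives. Shares were compared with exact two-sided permutation tests, adjusted over 15 tests. The pipeline was tested on simulated counts. Lengths and sequences come from GENCODE M21. Every pair of libraries of a group differed by more than sampling noise (lowest chi-square per degree of freedom 32.4). All 8 members are named, with up to 4 genes of each related list by mean CPM and the 5 genes most like Ighm, Igha and the IgG sum. Some listed items are not reported here and were left out of the lists and sums. The members and lists were chosen with earlier results of these data known.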

Additional observations from a re-analysis of the deposited data

Results flagged for a closer look

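In TS-R, the only group with 4 libraries, a Dixon ratio above 0.829 marked a library that stood apart in 5 of 13 quantities, and each time it was TS-R replicate 3. For normally distributed values about 1 in 20 such groups would be marked by chance, and the 13 quantities are not independent of each other. Gene levels and their sum were taken in CPM, not on the log2 scale. The TS-R sums were 850, 3266, 23113 and 3475 CPM. With such skewed levels a high library is marked more readily, so that chance rate does not hold for them. The 5 marked quantities were Ighg1 (4269 CPM), Ighg2b (5753 CPM), Ighg2c (8839 CPM), Ighe (11.8 CPM) and the summed heavy chain level (23113 CPM). Ighm, Ighd, Ighg3, Igha, the 3 class shares and the heavy chain counts per B cell count did not mark a library. The same library had the highest lymph node stroma sum (1902 CPM) and the lowest adipocyte sum (4591 CPM), and their part in these values was not tested.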

How the results depend on the processing

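Precision is limited by 3 or 4 libraries a group, by the 2 to 27 IgG counts of each WTS-R library, and by single libraries with other tissue content. Members called numbered, in TS-R minus WTS-R, 7 by DESeq2, 7 by limma with voomWithQualityWeights (13.5% of all genes higher), 7 of 8 with no filter on low counts (2.42% higher) and 2 without the libraries that express Xist (0.276% higher), against 0 by edgeR. In NTS-R minus TS-R they numbered 2, 4 (7.28% of all genes lower), 1 (1.14%) and 0, in NS-R minus WTS-R 2, 0, 0 and 0, in NTS-R minus NS-R 0, 0, 0 and 1 (Ighg2c; 0.186% higher), and in the interaction 6, 2 (7.24% lower), 0 and 0. Other size factors, or leaving immunoglobulin genes out of the library sizes, called 0 members. Leaving out 1 library at a time gave 0 to 7 calls for TS-R minus WTS-R (7 with TS-R replicate 1 left out, 6 when it was TS-R replicate 4), 0 to 1 for NTS-R minus TS-R (1 without either; 5.75% and 4.21% of all genes lower), 0 to 2 for the interaction (2 without TS-R replicate 1; 2.99% lower) and 0 for the others. Replicate numbers recur across groups, and the labels do not say whether they pair the samples. Deviations of same-numbered libraries correlated weakly (r from -0.30 to 0.31 over 18 pairs, 6 above 0.1), which cannot decide whether the samples are paired. With the replicate block edgeR called 6 (3.58% of all genes higher), 2 (0.376% lower), 0, 0 and 1 (0.0984% lower) members in the same order.

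The total level relative to 3 B cell genes, a sum chosen after seeing the data, was 2.61 for TS-R minus WTS-R, 0.93 for NTS-R minus TS-R and 2.36 for donor diabetes in log2, against 6.90, -3.11 and 4.40 on CPM. All 15 share differences stayed above an adjusted p of 0.05 in every setting. As a share of class-switched genes, IgG had 6.13 points in NTS-R minus TS-R, and IgA -32.7 in TS-R minus WTS-R, -27.2 in NS-R minus WTS-R, -11.6 in NTS-R minus NS-R and -22.1 points for donor diabetes, all of the other sign. With single libraries left out, NTS-R minus TS-R ran from -7.31 to 26.0 points (unswitched), -20.0 to 0.792 (IgG) and -14.2 to 15.05 (IgA); IgG was 0.792 also without the libraries that express Xist. Fold changes of the other sign were seen in NS-R minus WTS-R and NTS-R minus NS-R only. In NS-R minus WTS-R, Ighd ran from -0.46 to 0.11 and Ighg3 from -0.35 to 6.66 with 1 library left out, and Ighg3 was -0.34 without the libraries that express Xist. In NTS-R minus NS-R the leave-one-out ranges were -0.34 to 1.73 (Ighm), -1.13 to 0.60 (Ighd), -1.29 to 6.94 (Ighg3), -0.44 to 8.10 (Ighg1), -0.56 to 4.67 (Ighg2b), -0.84 to 7.08 (Ighg2c) and -0.21 to 5.69 (Igha). There voom gave -0.064 for Ighd and 4.04 for Ighg2c, the replicate block 2.24 for Ighg2c, and the fit without the libraries that express Xist 7.08 for Ighg2c. The cause of these shifts was not tested.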
